A study of Mus musculus with 16 samples.

Results

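The AP-1 transcription factor genes Jun, Junb, Jund, Fos, Fosl2 and Atf3 were examined in H3K27Ac ChIP-seq of mouse liver. Each gene was represented by 1 fixed window of the NCBI37/mm9 genome, and every peak that lay in or reached into the window was taken in each of the 15 animals. When overlapping peaks of all animals were merged, the 6 windows held 24 of the 56941 regions found on chromosomes 1 to 19 and X. The windows were chosen by position and not by signal, and with earlier results of these data known. No mm9 annotation entered the work, so a peak was assigned to a window and not to a promoter or an enhancer of a gene.

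The groups were 5 Mdr2-WT livers (FVB.129P2 in the sample records, FVB/NJ in the study's methods), 5 livers of Mdr2-KO mice (FVB.129P2-Abcb4tm1Bor/J) at the inflamed stage and 5 nodules of hepatocellular carcinoma (HCC) from Mdr2-KO mice, each from a different animal. Mdr2 is the phospholipid transporter of the bile canaliculus, and mice without it develop chronic bile-driven inflammation and later HCC. WT livers and nodules were taken at 14 to 19 months of age and inflamed livers at 7 to 8 months, so that the inflamed stage and the younger age cannot be told apart. All 3 groups had received clodronate liposomes (50 ug per g of body weight) 48 h before collection, which deplete macrophages. The knockout affects the whole body, both sexes were used without the sex of each animal being given, and the samples are bulk tissue, in which a change in the cells present and a change of acetylation within cells cannot be told apart. The markers of hepatocytes and of other cell types were not checked here, since an mm9 annotation was not used.

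AP-1 is a family of leucine zipper proteins that bind DNA as dimers. Jun proteins pair with each other or with Fos and ATF proteins, while Fos proteins need a partner of another subfamily. Several of the genes are immediate early genes, switched on within minutes by growth factors, cytokines or stress, and in liver Jun is known for its part in hepatocyte survival and regeneration. H3K27Ac, acetylation of lysine 27 of histone H3, marks active promoters and enhancers, and a wide or strong peak is the usual sign of an active locus. It does not measure the transcript.

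Lists held 26375 to 30268 peaks in WT livers, 35901 to 40909 in inflamed livers and 26683 to 42736 in nodules, and the genome under peaks was 109 to 148 Mb, 138 to 160 Mb and 92.5 to 175 Mb. WT5 (animal 130748) and HCC1 (animal 124711) had the least genome under peaks of their groups and stood apart in an earlier look at these data. The study removed outlier samples from its principal component plot of H3K27Ac, and its text does not name them. Whether WT5 and HCC1 are among them is unknown, and all 15 animals were used here. Differences of whole windows that change sign or size by over 1.5 times without either are given both ways. The files hold no read counts, so the depth of each library is unknown. Peaks were therefore compared by presence and by covered length, the number of base pairs of a window under peaks in 1 animal. Scores of the peak caller were used only to rank peaks within their own list, as the percentile of a peak in that list. The top score of 3100 was shared by many peaks, and peaks at that score have the same percentile.

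The promoters of Atf3 and Fosl2, whose windows differed most clearly between groups, and of Jun, whose window held a single peak in every animal, are shown as the 250 bases before the start of the gene in RefSeq (GRCm38.p6). Their positions are chr1:191183334-191183583 on the minus strand for Atf3, chr5:32136222-32136471 on the plus strand for Fosl2 and chr4:95052223-95052472 on the minus strand for Jun. These coordinates are not those of the mm9 peaks and cannot be set against them. Sequences run 5′ to 3′ in the direction of the gene, with CG dinucleotides in capitals.
Atf3: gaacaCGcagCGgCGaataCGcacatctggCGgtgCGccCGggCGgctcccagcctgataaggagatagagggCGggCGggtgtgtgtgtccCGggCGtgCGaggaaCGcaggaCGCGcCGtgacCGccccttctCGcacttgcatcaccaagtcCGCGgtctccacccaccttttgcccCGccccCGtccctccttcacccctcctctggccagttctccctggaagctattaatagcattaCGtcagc
Fosl2: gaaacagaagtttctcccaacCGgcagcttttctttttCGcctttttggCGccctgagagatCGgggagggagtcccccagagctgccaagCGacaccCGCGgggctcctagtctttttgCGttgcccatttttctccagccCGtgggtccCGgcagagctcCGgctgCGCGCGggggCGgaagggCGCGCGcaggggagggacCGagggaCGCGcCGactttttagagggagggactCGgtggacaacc
Jun: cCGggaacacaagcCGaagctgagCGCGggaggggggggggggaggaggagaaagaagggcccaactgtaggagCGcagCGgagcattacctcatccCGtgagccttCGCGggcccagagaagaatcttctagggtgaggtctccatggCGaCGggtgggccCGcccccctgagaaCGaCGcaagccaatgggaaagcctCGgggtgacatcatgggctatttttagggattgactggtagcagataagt
The promoter of Atf3 held 24 CG dinucleotides and a GC content of 65.2%, that of Fosl2 23 and 64.4%, and that of Jun 15 and 61.2%. The median GC content of the same stretch over 32851 promoters was 52.4%. The promoters of Junb (66.4%) and Fos (58.4%) were also above the median, and the single entry for Jund (47.6%, 3 CG dinucleotides) was below it. Whether that entry is the start of the coding transcript of Jund is uncertain, and its sequence is not shown.

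None of the 6 promoter stretches, the uncertain entry for Jund included, held any of the 5 motifs searched on both strands. These were the AP-1 site TGACTCA, found in 4.46% of all promoters of the table, the cAMP response element TGACGTCA in 1.55%, the STAT-like TTCNNNGAA in 7.02%, the NF-kB-like GGNNTTTCC in 4.93% and the E-box CACGTG in 6.02%. The absence of these exact letters from a 250-base window says nothing about binding of a factor.

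Each of the 6 windows held an H3K27Ac peak in every animal. Of the 24 regions, 12 had a peak in all 15 animals, against 12112 of 56941 regions (21.3%) across the genome, and 5 had a peak in a single animal (20.8%), against 13040 (22.9%) across the genome. The Jun window held 1 region, Junb 3, Jund 4, Fos 8, Fosl2 3 and Atf3 5. As a share of the window, whose limits were set by hand, the WT livers had 65.7 ± 4.63% under peaks at Junb (SD, n = 5), 54.4 ± 21.4% at Jund, 30.6 ± 4.15% at Fos, 24.4 ± 6.54% at Atf3, 12.7 ± 1.46% at Jun and 12.3 ± 0.607% at Fosl2. In this order the animals' shares overlapped between Junb and Jund, between Fos and Atf3 and between Jun and Fosl2, while Jund lay above Fos and Atf3 above Jun in all but the lowest Atf3 value, that of WT1. In inflamed livers Atf3 (39.8 ± 4.29%) came before Fos (34.4 ± 6.73%) and was level with Jund (39.99 ± 2.46%), and the shares of these 3 windows overlapped. In nodules Fosl2 (17.4 ± 1.76%) came before Jun (13.1 ± 1.62%).

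Against this shared pattern, 2 windows separated groups. Atf3 had more base pairs under peaks in every inflamed liver than in every WT liver, and Fosl2 had more in every nodule than in every WT or inflamed liver. For comparison, the genome was divided into consecutive tiles of 50000 bp, and 24830 tiles held a peak in at least 1 animal. In inflamed against WT livers, 1 of the 6 windows was higher without overlap, where 14.5% of tiles were, and none was lower, where 4.03% of tiles were. In nodules against inflamed livers, 1 window was higher, where 1.48% of tiles were, and none was lower (4.76% of tiles). In nodules against WT livers, 1 window was higher, where 1.30% of tiles were, and none was lower (1.16% of tiles). The share of 1 in 6 is close to the genome's share for the inflamed livers and above it for the nodules. However, tiles needed a peak in only 1 animal, whereas every window held a peak in all 15, so the shares are not of like stretches. A count of 1 window, which for the nodules rests on a separate peak of HCC1 described below, is too small to read as an excess. The comparisons share animals and are not independent of each other.

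**Figure D1:**
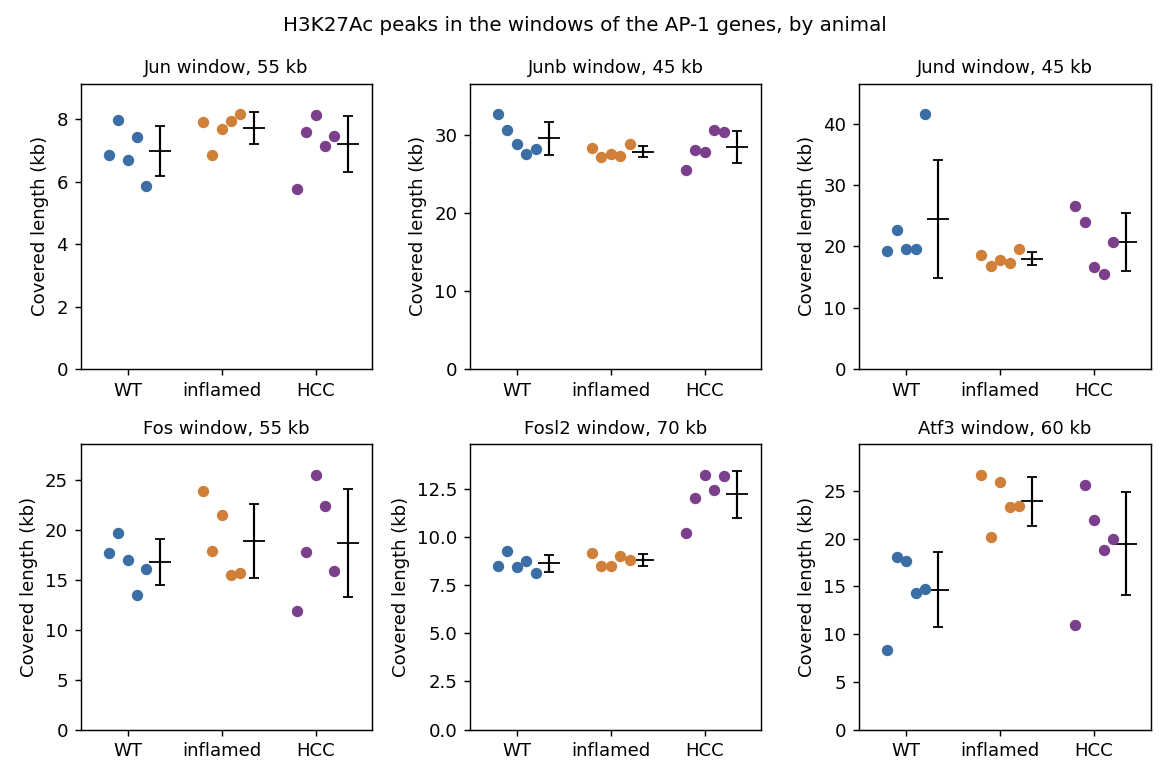
Covered length in kb (vertical axes, starting at 0) in the window of each gene, with 1 point per animal for WT livers, inflamed livers and HCC nodules, and the mean with SD beside the points (n = 5). At Fosl2 the nodules lie at 10204 bp and above and all other animals at 9274 bp and below, at Atf3 the inflamed livers lie above the WT livers, and at Jund 1 WT liver reaches 41518 bp.

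Jun encodes c-Jun, the strongest activator among the Jun proteins. Its window (chr4:94690000-94745000) held a single peak in every animal, in a region from 94714444 to 94722610. The peak covered 6872, 7989, 6699, 7434 and 5861 bp in WT1 to WT5. It covered 7920, 6857, 7699, 7950 and 8166 bp in inflamed1 to inflamed5, and 5755, 7598, 8133, 7151 and 7455 bp in HCC1 to HCC5. The groups overlapped, and the shortest peaks were those of HCC1 and WT5. Means were 6971 ± 801 bp in WT, 7718 ± 509 bp in inflamed and 7218 ± 892 bp in HCC samples (SD, n = 5 each). Inflamed and WT livers did not differ beyond the spread between animals (difference 747 bp, exact two-sided permutation test, p = 0.119, Benjamini-Hochberg adjusted p = 0.294 over the windows and all tiles). The lowest p that this test can give with 5 animals in each group is 0.00794. The same held for nodules and inflamed livers (-500.0 bp, exact permutation p = 0.333, adjusted p = 0.828) and for nodules and WT livers (247 bp, exact permutation p = 0.643, adjusted p = 1). Without WT5 the difference of inflamed minus WT was 470 bp and that of HCC minus WT -30.1 bp, and without HCC1 that of HCC minus inflamed was -134 bp and that of HCC minus WT 613 bp, with overlap in each case. In all 15 animals the peak was at the tied top score of its list.

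Junb encodes a Jun protein that activates transcription less strongly than c-Jun and can restrain it. Its window (chr8:87480000-87525000) held the widest region of all 6, from 87488401 to 87516103, with a peak in all 15 animals. Its mean covered length of 25676 bp was larger than that of 97.6% of the 12112 regions with a peak in every animal, and it varied by 3.96% (coefficient of variation over the 15 animals), where the median over those regions was 19.3%. The caller drew the region as 1 unbroken peak in WT2 and HCC5 and as several in the other animals, so that the number of peaks says little here. Genes that flank Junb in RefSeq order include Prdx2 and Hook2, and the region was not assigned among these genes. In the whole window, peaks covered 32667, 30664, 28798, 27550 and 28195 bp in WT1 to WT5. Inflamed1 to inflamed5 had 28392, 27185, 27595, 27285 and 28814 bp, and HCC1 to HCC5 had 25500, 28049, 27850, 30596 and 30354 bp. All groups overlapped. Means were 29575 ± 2083 bp in WT, 27854 ± 716 bp in inflamed and 28470 ± 2089 bp in HCC samples (SD, n = 5 each), and the differences were -1721 bp for inflamed minus WT (exact permutation p = 0.127, adjusted p = 0.306), 616 bp for HCC minus inflamed (exact permutation p = 0.540, adjusted p = 0.936) and -1105 bp for HCC minus WT (exact permutation p = 0.405, adjusted p = 0.917). Without HCC1 the differences were 1358 bp for HCC minus inflamed and -363 bp for HCC minus WT, with overlap in both. Per Mb under peaks in the same animal, inflamed livers lay below WT livers without overlap (-42.5 bp per Mb, exact permutation p = 0.00794, adjusted p = 0.0364). The divisor was larger in inflamed livers (median 149 Mb) than in WT livers (median 128 Mb). In this setting Jun, Fos and Fosl2 also turned negative, with overlap. The share of tiles lower per Mb is not given here. A smaller region from 87482352 to 87486587 also had a peak in every animal, and another region was found in WT1 alone.

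Fos encodes c-Fos, which dimerizes with Jun proteins and is a classic immediate early gene. Its window (chr12:86790000-86845000) held the most regions, 8, of which 3 had a peak in all animals. Covered length was 17735, 19705, 17054, 13500 and 16070 bp in WT1 to WT5. Inflamed1 to inflamed5 had 23942, 17924, 21535, 15537 and 15707 bp, and HCC1 to HCC5 had 11857, 17767, 25538, 22431 and 15937 bp. The nodules held both the lowest and the highest value of all animals. Means were 16813 ± 2280 bp in WT, 18929 ± 3702 bp in inflamed and 18706 ± 5385 bp in HCC samples (SD, n = 5 each). Differences were within the spread between animals (exact permutation tests, with 2116 bp for inflamed minus WT with p = 0.310 and adjusted p = 0.561, -223 bp for HCC minus inflamed with p = 0.968 and adjusted p = 1, and 1893 bp for HCC minus WT with p = 0.500 and adjusted p = 0.969). Without HCC1, HCC minus inflamed turned to 1489 bp (exact permutation p = 0.563) and HCC minus WT was 3605 bp (exact permutation p = 0.167).

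The regions within the Fos window behaved differently from one another. The one from 86811523 to 86816875 was among the most even, at 4591 ± 320 bp in WT, 4698 ± 209 bp in inflamed and 4550 ± 333 bp in HCC samples. The one from 86823746 to 86832645 covered 3095, 4477, 3835, 3227 and 3636 bp in WT1 to WT5, and 7659, 4600, 7265, 4534 and 4794 bp in inflamed1 to inflamed5. Every inflamed liver lay above every WT liver (difference 2116 bp, exact permutation p = 0.00794, adjusted p = 0.0634 over all merged regions). This was the lowest adjusted p of any region in this comparison, so no region of the genome passed 0.05. All regions without overlap between these groups, those at Atf3 and Jund included, share it. In this Fos region HCC1 to HCC5 had 3432, 5901, 8011, 5718 and 4027 bp, and overlapped with both groups. The score percentile of this peak within its own list was 7.75 to 57.1 in WT and 65.4 to 75.8 in inflamed livers. Inflamed lists were longer (35901 to 40909 peaks) than WT lists (26375 to 30268 peaks). A percentile depends on the length of its list, so these ranges cannot show whether the peak ranked higher in inflamed livers. A region from 86791870 to 86798640 also had a peak in every animal, and one from 86801961 to 86807459 was missing only in HCC1. By coordinate in RefSeq, Nek9 and Tmed10 come before Fos, and Jdp2 and Batf, which are AP-1 relatives themselves, come after it. The regions were not assigned among these genes.

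**Figure D2:**
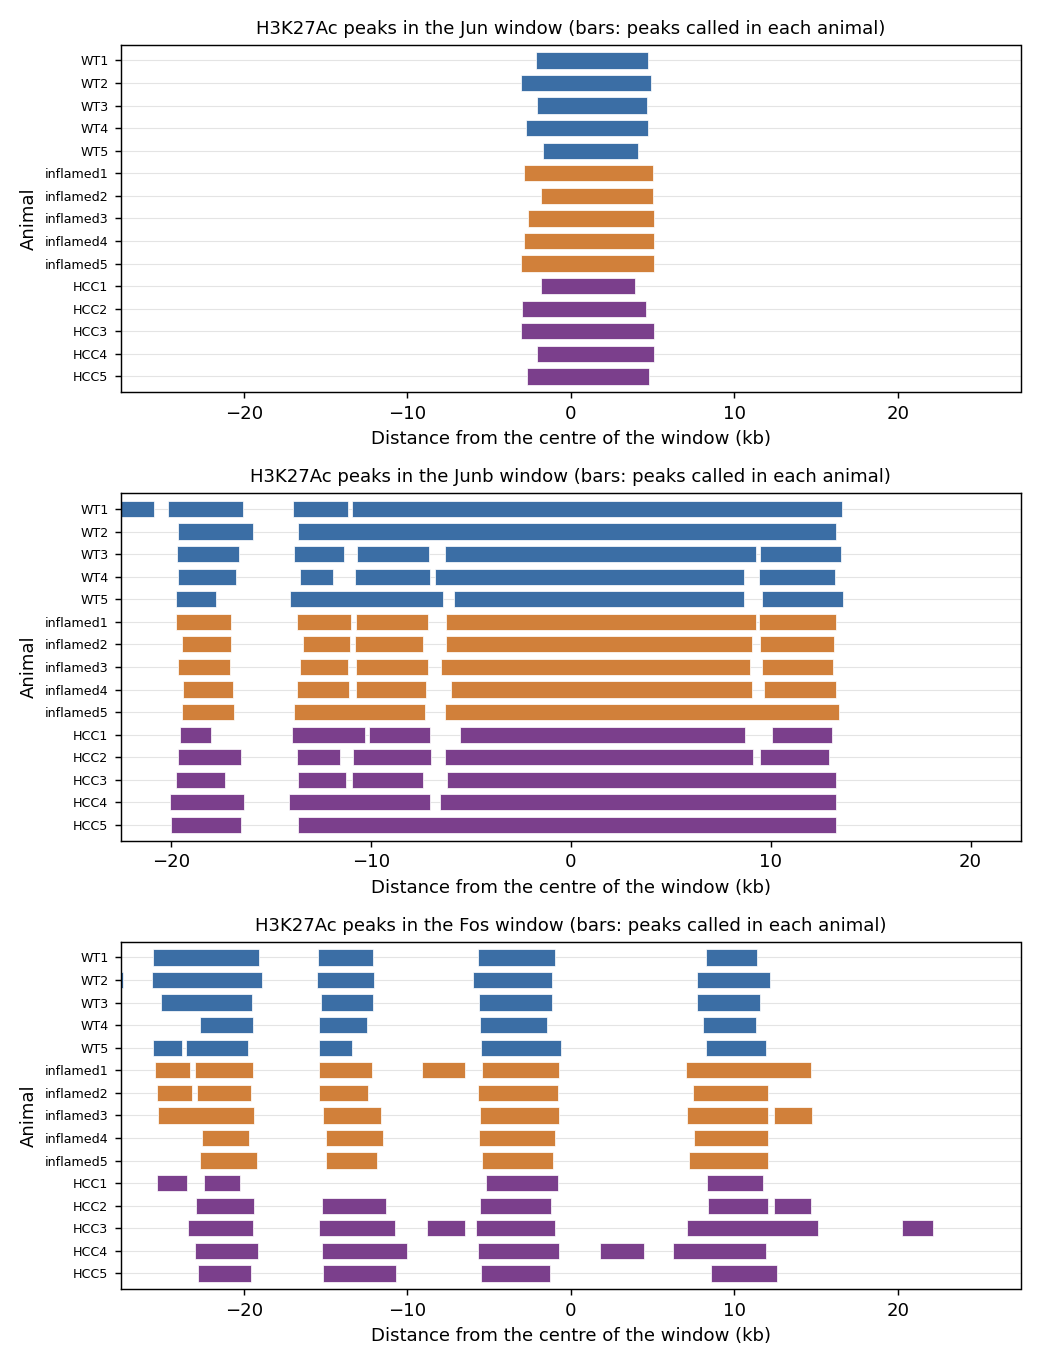
Peaks called in each of the 15 animals (rows) in the windows of Jun, Junb and Fos, drawn to scale by distance from the centre of the window in kb (horizontal axes), with bars cut at the window's edge. Jun shows 1 peak per animal, Junb a broad domain in all animals that is split at different places, and Fos separate peaks of which the 8 regions are occupied by between 1 and 15 animals.

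Fosl2 encodes Fra-2, a Fos protein that lacks the strong activation domain of c-Fos and is known for a part in fibrosis. Its window (chr5:32415000-32485000) gave the clearest difference of the nodules. WT1 to WT5 had 8494, 9274, 8425, 8777 and 8154 bp under peaks, and inflamed1 to inflamed5 had 9151, 8511, 8506, 9013 and 8829 bp. HCC1 to HCC5 had 10204, 12013, 13219, 12443 and 13165 bp. The nodules lay above all other animals, and the WT and inflamed livers overlapped almost entirely. Means were 8625 ± 425 bp in WT, 8802 ± 291 bp in inflamed and 12209 ± 1230 bp in HCC samples (SD, n = 5 each). The nodules had 1.39 times the covered length of inflamed livers (difference 3407 bp, exact permutation p = 0.00794, adjusted p = 0.127) and 1.42 times that of WT livers (difference 3584 bp, exact permutation p = 0.00794, adjusted p = 0.322). Neither passed the threshold of 0.05 after adjustment. No tile of the genome reached it in these comparisons by this test, although 3918 tiles for nodules against inflamed livers and 2455 for nodules against WT livers had an unadjusted p of at most 0.05. Within the window, inflamed and WT livers differed by less than the spread between animals (177 bp, exact permutation p = 0.452, adjusted p = 0.704, and 59.5 bp without WT5).

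Most of the difference at Fosl2 came from 1 peak, which ended further out in 4 of the 5 nodules. The region from 32434045 to 32447247 held a single peak in each of the 15 animals, at the tied score of 3100 in every list. Its starts lay within 318 bp of each other in WT livers, within 393 bp in inflamed livers and within 429 bp in nodules. It ended between 32442585 and 32443753 in WT livers and between 32443067 and 32443488 in inflamed livers. In HCC2 to HCC5 it ended at 32446486, 32446264, 32446487 and 32447247, so that a segment of 2511 bp from 32443754 to 32446264 was under a peak in 4 of 5 nodules and in none of the 10 other animals. In HCC1 the peak ended at 32442972, within the range of the WT livers. This nodule exceeded the other groups in the window only through a separate peak of 1491 bp from 32423239 to 32424729, at score percentile 20.9 of its list. HCC3 also had a separate peak, from 32413859 to 32416179, which reached into the window from outside it.

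Within the region alone, covered length was 11675 ± 1720 bp in nodules, 8802 ± 291 bp in inflamed and 8625 ± 425 bp in WT livers, and HCC1 with 8713 bp overlapped with both (HCC minus inflamed 2873 bp, exact permutation p = 0.0317, adjusted p = 0.389 over all merged regions; HCC minus WT 3050 bp, exact permutation p = 0.0238, adjusted p = 0.684). Among the 12112 regions with a peak in every animal, 264 (2.18%) were longer in at least 4 nodules than in all 10 WT and inflamed livers, a rule set after the values were seen. In the top 50% of each list the separate peak of HCC1 was gone and the groups overlapped, with 2873 bp more in nodules than in inflamed livers. With windows extended by 10000 bp on each side, nodules and inflamed livers overlapped (2192 bp, exact permutation p = 0.0952), while nodules still lay above WT livers. Inflamed minus WT was then 2515 bp, with overlap (exact permutation p = 0.0159, adjusted p = 0.0711), against 177 bp in the window itself.

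**Figure D3:**
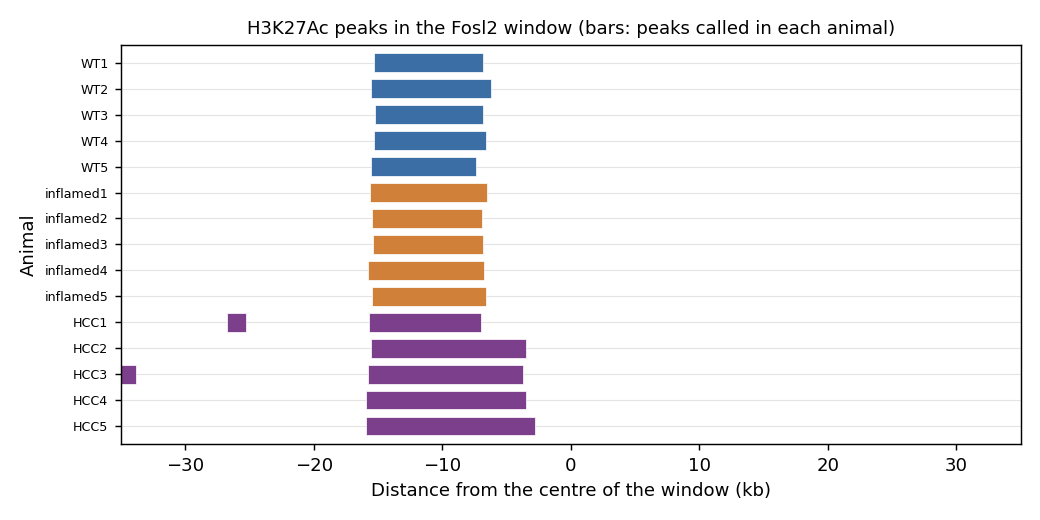
Peaks called in each of the 15 animals (rows) in the Fosl2 window, by distance from the centre of the window in kb. All animals share 1 peak, whose right edge lies further out in HCC2 to HCC5, which have 12013 to 13165 bp in this peak, than in the other animals, with at most 9274 bp.

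Atf3 encodes a stress-induced member of the ATF subfamily, which as a homodimer represses transcription and with Jun partners can activate it. By coordinate in RefSeq, Batf3, another AP-1 relative, and Fam71a come before Atf3, and Nenf and Pacc1 come after it. The regions of the window were not assigned among these genes. The Atf3 window (chr1:192970000-193030000) was the only one of the 6 to pass the threshold. WT1 to WT5 had 8315, 18113, 17693, 14298 and 14691 bp under peaks. Inflamed1 to inflamed5 had 26655, 20139, 25947, 23258 and 23440 bp, and HCC1 to HCC5 had 10997, 25633, 21922, 18824 and 19971 bp. All inflamed livers lay above all WT livers, and the nodules ranged across both groups. Means were 14622 ± 3921 bp in WT, 23888 ± 2576 bp in inflamed and 19469 ± 5396 bp in HCC samples (SD, n = 5 each). Inflamed livers had 1.63 times the covered length of WT livers (difference 9266 bp, exact permutation p = 0.00794, adjusted p = 0.0428), a value shared by the 4609 tiles that passed the threshold in this comparison. Nodules did not differ from either group beyond the spread between animals (-4418 bp against inflamed livers, exact permutation p = 0.119, adjusted p = 0.530, and 4847 bp against WT livers, exact permutation p = 0.143, adjusted p = 0.691). Without HCC1, the difference from inflamed livers was -2300 bp (exact permutation p = 0.238, adjusted p = 0.543), and nodules and WT livers no longer overlapped at Atf3 (6965.5 bp, exact permutation p = 0.0159, adjusted p = 0.195).

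Peaks in 2 regions that no WT liver had made up 80.5% of the difference between inflamed and WT livers. The region from 193016376 to 193019438 had a peak in 5 of 5 inflamed livers, 0 of 5 WT livers and 3 of 5 nodules. It covered 2567, 2303, 2275, 2409 and 2239 bp in inflamed1 to inflamed5, and 2007, 3021 and 2388 bp in HCC2, HCC3 and HCC4. The region from 193020508 to 193027385 had a peak in 5 of 5 inflamed livers, 0 of 5 WT livers and 4 of 5 nodules, all but HCC1. It covered 5845, 1875, 5901, 5795 and 6107 bp in the inflamed livers and 5849, 6744, 4772 and 5724 bp in HCC2 to HCC5. The presence of peaks over the 15 animals was the same in 186 regions of the genome for the former and in 273 for the latter.

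Score percentiles in inflamed livers were 13.9 to 37.9 in the former region, in the lower part of each list. In the latter they were 7.55 in inflamed2 and 40.8 to 53.0 in the other inflamed livers, around the middle of the list. Inflamed lists were longer than WT lists. When all lists were cut to the 26375 highest-scoring peaks, as many as the shortest holds, the former kept a peak in 2 inflamed livers and the latter in 4, against 0 WT livers in both. The window then overlapped between the groups (4050 bp, exact permutation p = 0.111, adjusted p = 0.299). Leaving out WT1, the animal with the least at Atf3, gave an adjusted p of 0.0732, and leaving out inflamed1, inflamed2, inflamed3 or inflamed4 gave 0.0545 to 0.0604, with the groups still apart in each case.

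The other regions at Atf3 were shared. The one with the highest scores, from 193001025 to 193011492, had a peak in all 15 animals and was continuous in all inflamed livers, where WT2, WT4, WT5 and HCC1 had 2 peaks each. It covered 5653, 8739, 8959, 7811 and 8258 bp in WT1 to WT5 and 9510, 9459, 9779, 9308 and 9658 bp in inflamed1 to inflamed5. The inflamed livers lay above the WT livers without overlap (difference 1659 bp, exact permutation p = 0.00794, adjusted p = 0.0634 over all merged regions). A region from 192992744 to 192996656 also had a peak in all animals, with similar lengths of 3150 ± 554 bp in WT, 2947 ± 226 bp in inflamed and 2919 ± 663 bp in HCC samples. A region from 192974125 to 192979912 had a peak in 4 WT livers, 5 inflamed livers and 2 nodules.

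**Figure D4:**
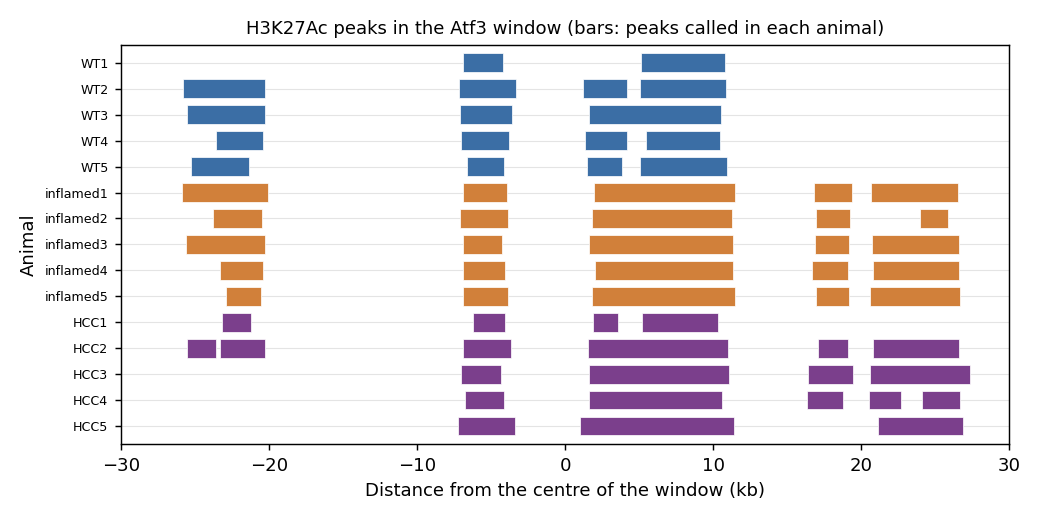
Peaks called in each of the 15 animals (rows) in the Atf3 window, by distance from the centre of the window in kb. On the right, 2 groups of peaks appear in all 5 inflamed livers, in 3 and 4 of the 5 nodules and in no WT liver, and the wide peak right of the centre is unbroken in all inflamed livers.

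Jund encodes a Jun protein that is broadly expressed in resting cells and is less dependent on stimulation than Jun. Its window (chr8:73200000-73245000) moved the other way, with fewer base pairs under peaks in inflamed livers on average, but the groups overlapped. WT1 to WT5 had 19281, 22582, 19466, 19465 and 41518 bp. Inflamed1 to inflamed5 had 18504, 16817, 17822, 17219 and 19609 bp, and HCC1 to HCC5 had 26537, 23957, 16608, 15403 and 20713 bp. WT5 lay far above all other animals, and inflamed5 was the only inflamed liver that reached into the WT range. Means were 24462 ± 9633 bp in WT, 17994 ± 1105 bp in inflamed and 20644 ± 4729 bp in HCC samples (SD, n = 5 each). The difference of inflamed minus WT was -6468 bp (exact permutation p = 0.0317, adjusted p = 0.1202) and was -2204 bp without WT5 (exact permutation p = 0.0397). With lists of equal length the groups no longer overlapped (-7085 bp, exact permutation p = 0.00794, adjusted p = 0.0535), nor did they per Mb under peaks of the same animal, where the exact permutation test gave an adjusted p of 0.0364. The Mb under peaks had a higher median in inflamed than in WT livers. The shares of tiles lower in these settings are not given here. With the top 50% of each list the 2 groups overlapped (-4762 bp, exact permutation p = 0.524, adjusted p = 0.830). Nodules did not differ from either group beyond the spread between animals (2649 bp against inflamed livers, exact permutation p = 0.286, adjusted p = 0.766, and -3819 bp against WT livers, exact permutation p = 0.571, adjusted p = 1). The former was 1176 bp without HCC1 (exact permutation p = 0.579), and the latter turned to 445 bp without WT5 (exact permutation p = 0.841).

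Within the Jund window, 1 region was present in all WT livers and nearly absent from inflamed livers. The region from 73207666 to 73214896 had a peak in all 5 WT livers, of 2958, 3151, 3035, 2470 and 7231 bp in WT1 to WT5. It had a peak of 1696 bp in inflamed5, at score percentile 2.79 of that list, and none in the other inflamed livers. Among nodules it was present in HCC1 (3771 bp) and HCC2 (1834 bp). The WT livers lay above the inflamed livers without overlap (inflamed minus WT -3430 bp, exact permutation p = 0.00794, adjusted p = 0.0634 over all merged regions), and this pattern of presence was shared by 3 regions of the genome. With lists of equal length the peak of inflamed5 was gone and all WT livers but no inflamed liver had a peak there. With the top 50% of each list 1 WT liver and no inflamed liver kept a peak.

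The remaining 3 regions of the Jund window had a peak in all 15 animals. The one from 73193936 to 73207379, which begins outside the window, was shorter in every inflamed liver (8331 ± 468 bp) than in every WT liver (10408 ± 1765 bp, exact permutation p = 0.00794, adjusted p = 0.0634). WT5 had 13444 bp there, and the other WT livers had 9166 to 10438 bp. These lengths take in the bases before the start of the window. Inside the window alone, WT and inflamed livers overlapped, with WT1 below inflamed1 and inflamed5, and no test is given. The region from 73214949 to 73228156 covered 10193 ± 1585 bp in WT, 10902 ± 268 bp in inflamed and 10670 ± 1007 bp in HCC samples, with inflamed and WT livers overlapping (exact permutation p = 0.365). This overlap came in large part from WT5, with 12756 bp. The other WT livers had 8877 to 10680 bp there, against 10530 to 11137 bp in inflamed livers. A test without WT5 is not given for this region. The one from 73230850 to 73251538 was 19989 bp long in WT5 and 8040 to 9180 bp in the other WT livers. Genes that flank Jund in RefSeq order include Pgpep1 and Lsm4, and the regions were not assigned among these genes.

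**Figure D5:**
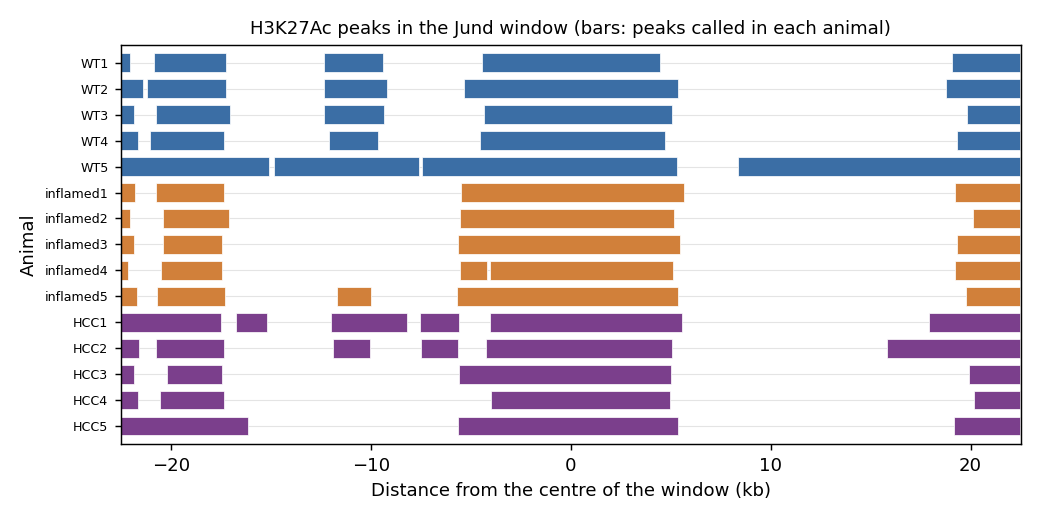
Peaks called in each of the 15 animals (rows) in the Jund window, by distance from the centre of the window in kb, with bars cut at the window's edge. The peak left of the centre is present in all WT livers and in 1 inflamed and 2 HCC samples, and WT5 has wider peaks than the other animals throughout the window.

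Over all 24 regions, 2 had a peak in all inflamed and no WT livers, both at Atf3, where 4.82% of the merged regions of the genome did, and 0 had the opposite pattern (0.399%). Between nodules and inflamed livers none of the 24 regions was present in all of 1 group and none of the other, in a genome where 0.105% were gained and 1.28% lost in nodules, and between nodules and WT livers none was, where 0.220% were gained and 0.146% lost. By covered length, 4 regions were longer without overlap in inflamed than in WT livers, 3 at Atf3 and 1 at Fos, where 9.43% of regions were, and 2 were shorter, both at Jund, where 3.08% were. The shorter ones include the Jund region that begins outside the window, where the groups overlapped inside the window alone. No region separated nodules from inflamed livers (genome 0.862% longer and 3.61% shorter) or from WT livers (0.694% longer and 0.934% shorter). Of the 24 regions 12 had a peak in all 15 animals, against 21.3% of the genome's regions. The shares are thus not of like regions, and the counts are not read as an excess.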

How the data were processed

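H3K27Ac ChIP-seq peaks of 15 mouse liver samples were analysed. The authors made a peak list for each animal, and each deposited list gives positions and a score per peak. The submitters' processing notes name mm9, Bowtie 0.12.7 and MACS 1.4, without their roles. The deposited score has no stated scale and was used only within its list. The control and the filters are not given in the sources used here, and an IgG sample of WT liver was not analysed here.

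Groups came from the sample records. Members, windows and motifs were chosen with earlier results of these data known. All 6 genes were described. Regions were named when they had a peak in all animals of 1 group and none of another, had a peak in all 15 animals, or were the widest of their window. Others were named after their values were seen. Peaks on chromosomes 1 to 19 and X were used, and overlapping or adjoining peaks were merged. Presence required an overlap of 1 bp. Covered lengths were tested by exact permutation of the group labels (two-sided, on the difference of means), with p adjusted by Benjamini-Hochberg over the 6 windows and 24830 tiles of 50000 bp, or over 56941 regions. With 5 animals against 5 there are 252 assignments of the labels. Other settings were the top 50% of each list, equal lists of 26375 peaks, covered length per Mb under peaks, windows extended by 10000 bp, the number of peaks, a peak covering 50% of a region, a peak in at least 4 of 5 against at most 1 of 5 animals, leaving out each animal, and leaving out WT5 and HCC1 together. Tiles of 25000 and 100000 bp were added after the values were seen. The code was tested on simulated data. A planned comparison of protein sequences was not run, because a protein table was not used here. Promoters and the order of genes came from RefSeq (GRCm38.p6). Tools were NumPy 2.4.6 and matplotlib 3.10.9 under Python 3.11.15.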

Additional observations from a re-analysis of the deposited data

Results flagged for a closer look

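Among the 18 groups of values examined, 6 windows in 3 groups of animals, 1 held an animal far from the others. A chance rate of about 1 in 20 was assumed. The same animals serve all windows, so the 18 groups are not independent, and WT5 was already known to stand apart. At Jund, WT5 had 41518 bp under peaks, where the other WT livers had 19281 to 22582 bp, a gap of 0.852 of the whole range. The excess was spread over the whole window and not over 1 peak. WT5 had 7231 bp in the region from 73207666 to 73214896 and 19989 bp in the region from 73230850 to 73251538 (NCBI37/mm9), where the other WT livers had at most 3151 and 9180 bp. HCC1 and HCC2 had the highest values among nodules in the same window, 26537 and 23957 bp. In the other 5 windows WT5 was within or below the range of the other WT livers, and it had the least genome under peaks of its group (109 Mb). The cause was not tested.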

How the results depend on the processing

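At Atf3, inflamed minus WT stayed positive under every alternative run. It lost its call in the exact permutation test with the top 50% of each list (3004 bp, adjusted p = 0.366), with lists of equal length (4050 bp, adjusted p = 0.299) and by number of peaks (1.6 peaks, adjusted p = 0.0751). Without 1 animal in turn it was 7689 to 10203 bp, with the groups apart in 10 of 10 cases and the call lost without WT1 or inflamed1 to inflamed4 (the cause was not tested). With the other alternatives the call held. At Fosl2, nodules stayed above both other groups without each animal in turn, 3154 to 3908 bp against inflamed and 3331 to 4085 bp against WT livers.

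Of windows whose groups did not overlap, the count higher in inflamed than in WT livers was 0 with the top 50% and with equal lists, and the count lower was 1 (Jund) with equal lists, 2 (Junb and Jund) per Mb under peaks, and 0 to 1 without 1 animal in turn, the 1 being Jund without inflamed5. The count higher in nodules than in inflamed livers was 0 with the top 50%, with extended windows and by number of peaks. The count higher in nodules than in WT livers was 0 with the top 50% and by number of peaks, 2 (Fosl2 and Atf3) without WT5 and HCC1 together, and 1 to 2 without 1 animal in turn, the 2 arising without HCC1. Of regions, those in all inflamed and no WT livers were 0 with the top 50% and with equal lists and 1 when a peak had to cover 50% of the region. Those in all WT and no inflamed livers were 1 (Jund) with equal lists and with 4 of 5 against 1 of 5, and 0 to 1 without 1 animal in turn. Those in all nodules and no WT livers were 1 (Atf3) with 4 of 5 against 1 of 5 and without WT5 and HCC1, and 0 to 1 without 1 animal in turn. For these settings the genome's shares of tiles and regions are not given here, so no count is read as a result about the members.

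Differences that changed sign were all uncalled. For inflamed minus WT they were Jun (-1.99), Fos (-3.04) and Fosl2 (-7.75) in bp per Mb, and Junb by number of peaks (0.6). For HCC minus inflamed they were Atf3 with the top 50% (1396 bp), Junb by number of peaks (-0.8), and Fos with equal lists (342 bp), per Mb (2.28 bp), without WT5 and HCC1 (1489 bp), and without inflamed1 (1030 bp), inflamed3 (428.5 bp), HCC1 (1489 bp), HCC2 (11.8 bp) or HCC5 (469 bp), in a range of -1931 to 1489 bp without 1 animal in turn. For HCC minus WT they were Jun (-3.24) and Fos (-0.759) in bp per Mb, and without WT5 Jun (-30.1 bp, range -30.1 to 613 bp without 1 animal in turn) and Jund (445 bp, range -5292 to 445 bp). The cause was not tested. No paired analysis was possible because each sample is a different animal, the labels number no replicates, and the numbers used here only follow the order of the sample records. Depth is unknown, and a weak peak missing from a list was not shown to be absent from the tissue.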
